A study of Homo sapiens with 21 samples.

Results

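Clone M1 and clone EM3 are a pair of cell lines grown out from SUM149PT, a human breast cancer line from an inflammatory tumour that the labels give as negative for the oestrogen and progesterone receptors. The comparison takes the 3 poly(A) RNA-seq libraries of M1 and the 3 of EM3, chosen by their line labels, which are 6 of the 21 libraries of the series. The others come from Parental SUM149PT cells and the clones E, EM1, EM2 and M2, also 3 libraries each. None of the lines was treated, and the labels record the same culture conditions and RNA kit for all of them. Each clone stands for its state through 1 line, so a difference between M1 and EM3 is a difference between 2 clones and cannot be told apart from one between a mesenchymal and an intermediate state. Whether the 3 libraries per clone were grown as separate cultures is not recorded, and a p-value here speaks for library-to-library spread alone, which may be technical. The study as a whole looked at how varied and how plastic the intermediate state of the epithelial-mesenchymal transition is in this tumour line.

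In the epithelial-mesenchymal transition, cells give up the adherens junctions, tight junctions and desmosomes that hold an epithelial sheet together and take on a motile form that lays down and cuts extracellular matrix. Transcription factors of the ZEB, SNAI and TWIST families repress junction genes such as CDH1, and a set of epithelial factors, GRHL2, the OVOL proteins and the splicing factors ESRP1 and ESRP2, holds the epithelial state. Intermediate, or hybrid, cells carry genes of both kinds and are studied in breast cancer for their plasticity.

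The marker levels followed the line labels. M1 had next to no CDH1 RNA, while EM3 expressed CDH1 and other epithelial genes together with VIM, FN1 and CDH2 at levels below those of M1. E-cadherin, the adhesion protein of adherens junctions that CDH1 encodes, had 0.12, 0.07 and 0.05 TPM, a level scaled by transcript length and library size, in M1 replicates 1, 2 and 3, against 14.1, 42.3 and 48.6 TPM in EM3 replicates 1, 2 and 3. Vimentin, the mesenchymal intermediate filament protein encoded by VIM, had 3097, 2728 and 2168 TPM in M1, against 1490, 1229 and 1047 TPM in EM3. The lines did not overlap for either gene, and VIM was abundant in both. PGR was at or below 0.03 TPM in all 6 libraries, and ESR1 had 0.01, 0.03 and 0 TPM in M1 and 0.77, 2.1 and 2.26 TPM in EM3.

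The difference between M1 and EM3 reached far into the transcriptome. Of 16380 genes tested, 6080 passed a Benjamini-Hochberg adjusted p under 0.05 in edgeR's quasi-likelihood test, which is 37.1% of the genes. Among them 2871 were higher in M1, 17.5% of the genes tested, and 3209 were lower in M1, 19.6%. The median size of the log2 fold change among called genes was 1.13, and 983 called genes differed by more than 3 log2 units. A gene is called below when it passed this test, every adjusted p is adjusted over all 16380 genes, and fold changes are log2 values of M1 minus EM3 with a standard error (SE) from 3 libraries a line. The median fold change over all genes tested was 0.00, so medians of gene lists can be read against that. With so many genes called, a list is described by its counts and its median beside these figures, and no more is read from it. The libraries of M1 and EM3 did not overlap for 6245 of the 16380 genes tested, or 38.1%. Among the 6080 called genes, 5057 did not overlap. A lack of overlap, where given below, is therefore usual for a called gene and does not set it apart from other called genes. In units of 1e6 expected counts, libraries held between 37.5 and 46.6 in M1 and between 38.1 and 42.0 in EM3. Replicate 3 of both lines stood apart from replicates 1 and 2 in mean effective transcript length weighted by counts, at 1999 against 2365 and 2378 bases in M1 and at 1951 against 2219 and 2200 bases in EM3, and the fit carried this split as a term. Without the term, 3482 genes were called.

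**Figure D1:**
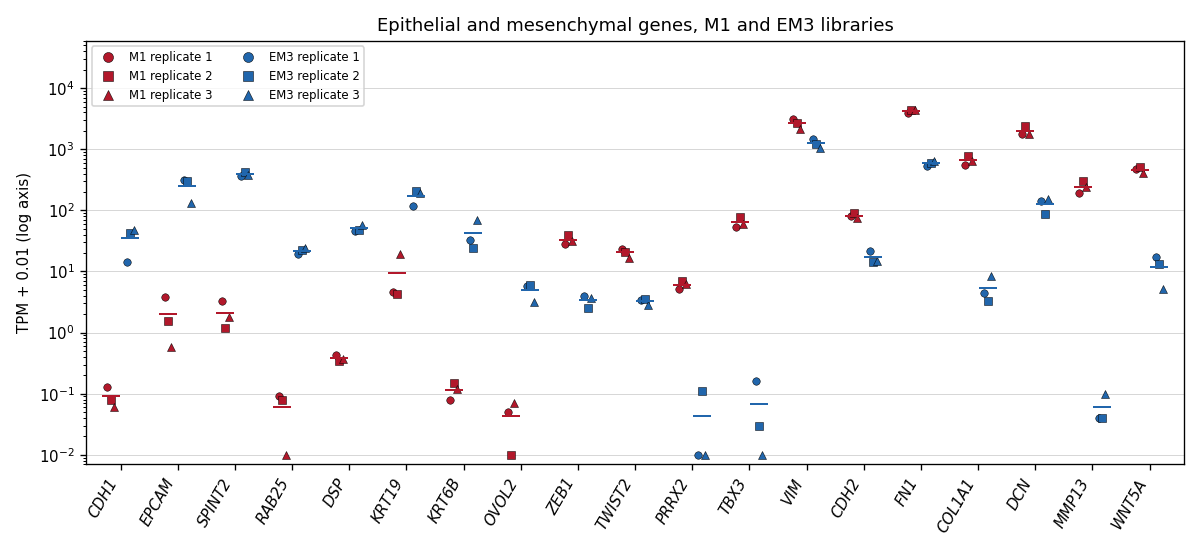
TPM plus 0.01, on a log axis, of 19 epithelial and mesenchymal genes in each M1 library (red, left of each pair) and each EM3 library (blue, right), with bars at the line means. CDH1 lies at or below 0.12 TPM in all M1 libraries and at or above 14.1 TPM in all EM3 libraries, while MMP13 lies at or above 191 TPM in M1 and at or below 0.09 TPM in EM3.

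Genes for epithelial junctions and surface proteins were lower in M1 almost without exception. Of 30 genes on this list 29 could be tested, 28 were lower in M1, none was higher, and the median fold change was -5.43. With each library left out in turn, 27 of the 28 stayed called. TJP1, which encodes the tight junction scaffold ZO-1, was the tested gene that was not called, with 50.7, 54.2 and 49.4 TPM in M1 and 45.9, 48.2 and 69.01 TPM in EM3. P-cadherin, the second classical cadherin of breast epithelium and the product of CDH3, had 0.61, 0.28 and 0.09 TPM in M1, against 57.6, 75.5 and 74.1 TPM in EM3 (log2 fold change -8.40, SE 0.26, adjusted p 1.03e-06). EPCAM, an epithelial adhesion and signalling protein, had 3.87, 1.51 and 0.56 TPM in M1, against 308, 304 and 130.0 TPM in EM3 (log2 fold change -7.24, SE 0.32, adjusted p 9.75e-06). For both genes the highest M1 library lay far below the lowest EM3 library. The EPCAM level of M1 replicate 1 was the highest of the M1 libraries, as it was for CD24 and CDH1.

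Among the claudins, CLDN7 kept a measurable level in M1 and CLDN4 was close to absent. CLDN7 had 26.4, 15.5 and 26.9 TPM in M1, against 113, 142 and 154 TPM in EM3 (log2 fold change -2.65, SE 0.21, adjusted p 7.36e-05), whereas CLDN4 had 0.04, 0.1 and 0.02 TPM in M1 and 2.36, 7.95 and 8.42 TPM in EM3 (log2 fold change -7.21, SE 0.69, adjusted p 0.000293). Occludin, a strand protein of tight junctions, had 0.54, 0.14 and 0.2 TPM in M1 and 7.75, 10.1 and 15 TPM in EM3 (log2 fold change -5.11, SE 0.34, adjusted p 3.47e-05). F11R, which encodes the junction protein JAM-A, had 1.97, 1.96 and 4.23 TPM in M1 and 25.6, 23.96 and 25.6 TPM in EM3 (log2 fold change -3.65, SE 0.13, adjusted p 1.67e-06). No M1 library reached any EM3 library for these 4 genes. TJP3, which encodes the scaffold ZO-3, had no count in M1 and 0.62, 0.8 and 2.31 TPM in EM3, and was at least 92.2-fold lower in M1 when 3 counts over the 3 M1 libraries are taken as the floor. MARVELD3, a tight junction membrane protein, had 1 count over the 3 M1 libraries and 1556 counts over the EM3 libraries.

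Genes for the serine protease network at the epithelial surface fell together. ST14 encodes matriptase, PRSS8 encodes prostasin, and SPINT1 and SPINT2 encode the inhibitors HAI-1 and HAI-2 that hold them in check. SPINT2 had 3.29, 1.19 and 1.8 TPM in M1, against 368, 422 and 383 TPM in EM3 (log2 fold change -7.27, SE 0.24, adjusted p 1.08e-06). ST14 had 0.17, 0.2 and 0.13 TPM in M1, against 24.9, 25.9 and 30.99 TPM in EM3 (log2 fold change -7.34, SE 0.22, adjusted p 1.03e-06). PRSS8 had 0.09, 0.19 and 0.29 TPM in M1, against 6.41, 13.9 and 13.2 TPM in EM3 (log2 fold change -6.03, SE 0.40, adjusted p 2.77e-05). The 3 M1 libraries were all below the 3 EM3 libraries for each of them. Genes for apical polarity and traffic were lower as well. CRB3, which encodes the polarity protein crumbs 3, had 0.05, 0.02 and 0.1 TPM in M1 and 8.27, 14.1 and 11.9 TPM in EM3 (log2 fold change -7.35, SE 0.41, adjusted p 1.11e-05). AP1M2, the epithelial clathrin adaptor subunit, had 0.42, 0.05 and 0 TPM in M1 and 48.8, 60.1 and 70.2 TPM in EM3 (log2 fold change -9.12, SE 0.65, adjusted p 0.000169). RAB25, a small GTPase of recycling endosomes, had 0.08, 0.07 and 0 TPM in M1 and 19.2, 22.4 and 23.8 TPM in EM3, on 3 counts in M1 and 2141 in EM3.

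The promoters of CRB3 and AP1M2 are shown as examples from the epithelial lists, picked after an earlier motif search that is not reported. They are RefSeq sequences on GRCh38.p14, printed in the direction of the gene from 250 bases before its start to 50 bases after it. No binding was measured here.
CRB3, chr19:6464021-6464320, plus strand: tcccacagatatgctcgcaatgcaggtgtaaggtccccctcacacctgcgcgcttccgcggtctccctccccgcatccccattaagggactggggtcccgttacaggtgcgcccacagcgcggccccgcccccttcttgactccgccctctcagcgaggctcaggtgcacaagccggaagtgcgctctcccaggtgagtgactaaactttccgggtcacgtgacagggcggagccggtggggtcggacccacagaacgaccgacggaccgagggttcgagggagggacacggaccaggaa
AP1M2, chr19:10587263-10587562, minus strand: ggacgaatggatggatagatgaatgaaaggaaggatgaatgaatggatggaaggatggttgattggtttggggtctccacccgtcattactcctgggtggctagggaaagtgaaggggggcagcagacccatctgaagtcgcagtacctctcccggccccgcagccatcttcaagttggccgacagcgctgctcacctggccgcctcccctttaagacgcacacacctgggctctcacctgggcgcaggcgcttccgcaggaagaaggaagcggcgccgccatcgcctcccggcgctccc

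Most transcription and splicing factors that hold the epithelial state were lower in M1, and several were close to absent. Of 20 genes on the list 16 were tested, 14 were lower, 1 was higher, and the median fold change was -3.09. GRHL2, a grainyhead factor that activates junction genes, had 0.02, 0.01 and 0.02 TPM in M1, against 112, 112 and 52.9 TPM in EM3 (log2 fold change -9.80, SE 0.30, adjusted p 1.03e-06). OVOL1, a zinc finger repressor of mesenchymal genes, had 0, 0.05 and 0.01 TPM in M1 and 1.38, 1.97 and 6.21 TPM in EM3 (log2 fold change -7.87, SE 0.63, adjusted p 8.59e-05). No library of M1 reached the lowest library of EM3 for either gene. The splicing factors were unequal. ESRP1 had 0.79, 0.04 and 0.22 TPM in M1 and 46.5, 80.5 and 40.4 TPM in EM3 (log2 fold change -9.23, SE 0.55, adjusted p 8.61e-05), and its paralogue ESRP2 had 2.36, 1.54 and 1.53 TPM in M1 and 27.3, 23.5 and 19.4 TPM in EM3 (log2 fold change -3.91, SE 0.25, adjusted p 2.77e-05). Both were below EM3 in every M1 library, and ESRP2 kept a measurable level. The luminal factors GATA3 (log2 fold change -2.19, SE 0.20, adjusted p 0.00012) and FOXA1 (log2 fold change -3.31, SE 0.30, adjusted p 0.000106) were lower too. TFAP2C was the called gene in the other direction, with 32.9, 54.4 and 52.1 TPM in M1 and 25.6, 20.8 and 30.8 TPM in EM3 (log2 fold change 0.87, SE 0.22, adjusted p 0.0175). Its call was lost without M1 replicate 3 (adjusted p 0.0773), without EM3 replicate 2 (adjusted p 0.0671) and without EM3 replicate 3 (adjusted p 0.0791). EHF was tested and not called in the main test. It was called lower with the DESeq2 Wald test and in a fit of all 21 libraries. The same held on replicates 1 and 2 only and without replicate 3 of either line.

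Keratins, the intermediate filaments of epithelia, were lower in M1 for most members but not for the most abundant one. Of 20 keratin genes 17 were tested, 13 were lower, none was higher, and the median was -2.67. KRT7 had 1501, 1805 and 2118 TPM in M1 and 2498, 2063 and 1968 TPM in EM3 and was not called (log2 fold change -0.30, SE 0.18, adjusted p 0.247). KRT18 had 56.02, 64.2 and 78.9 TPM in M1 and 224, 209 and 212 TPM in EM3 (log2 fold change -1.73, SE 0.16, adjusted p 0.000128), and KRT19 had 4.56, 4.3 and 19.4 TPM in M1 and 119, 211 and 195 TPM in EM3 (log2 fold change -4.39, SE 0.47, adjusted p 0.00102). The lines did not overlap for KRT18 or KRT19, while they did for KRT7. The basal keratin KRT5 had 40.5, 30.8 and 28.3 TPM in M1 and 219.7, 129.6 and 269.9 TPM in EM3 (log2 fold change -2.67, SE 0.29, adjusted p 0.000648). KRT6A and KRT6B, near-identical paralogues between which reads can be split, had 25.02, 25.8 and 15.7 and 0.07, 0.14 and 0.11 TPM in the M1 libraries, against 191, 113 and 360.4 and 33.1, 23.9 and 68.5 TPM in the EM3 libraries. M1 was below EM3 in every library for both, and the split between these paralogues is uncertain. KRT17 had 57.5, 168 and 272 TPM in M1 and 68.3, 37.7 and 329.7 TPM in EM3, with a wide spread within each line and no call (log2 fold change 0.63, SE 0.56, adjusted p 0.445).

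Most genes of desmosomes, the junctions that anchor keratin filaments, were lower in M1. Of 19 desmosome and hemidesmosome genes, all tested, 14 were lower, 1 was higher, and the median was -2.61. Desmoplakin, which links the plaque to keratins, had 0.42, 0.33 and 0.36 TPM in M1, against 46.3, 48.6 and 57.97 TPM in EM3 (log2 fold change -7.08, SE 0.16, adjusted p 1.03e-06). Plakoglobin, the product of JUP, had 2.71, 1.26 and 1.81 TPM in M1, against 52.9, 69.3 and 94.1 TPM in EM3 (log2 fold change -5.33, SE 0.23, adjusted p 3.87e-06). DSC3 had 0.07, 0.05 and 0.03 TPM in M1, against 17.6, 16.6 and 19.5 TPM in EM3 (log2 fold change -8.20, SE 0.29, adjusted p 1.79e-06). All 3 genes were far below EM3 in every M1 library. Desmoglein 2 was the desmosomal cadherin that M1 kept in part, with 13.8, 11.7 and 6.85 TPM against 68.3, 75.7 and 56.4 TPM in EM3 (log2 fold change -2.69, SE 0.15, adjusted p 1.05e-05). Among hemidesmosome and basement membrane genes, LAMA3, an alpha chain of the laminin that hemidesmosomes bind, had 9.18, 13.96 and 10.9 TPM in M1, against 329.5, 175 and 638 TPM in EM3 (log2 fold change -4.88, SE 0.44, adjusted p 0.000457). The integrin gene ITGB4 was not called (log2 fold change -0.67, SE 0.31, adjusted p 0.133), nor was the laminin chain LAMB3 (log2 fold change -1.19, SE 0.51, adjusted p 0.134). DST, a cytolinker with both epithelial and other forms, was higher in M1 (log2 fold change 0.88, SE 0.12, adjusted p 0.000795).

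Transcription factors of the mesenchymal state were higher in M1 for some families and not for others. Of 20 genes 19 were tested, 13 were higher, 1 was lower, and the median was 2.65; limma-trend on TPM called 8 higher. ZEB1, the zinc finger repressor of CDH1, had 28.03, 39.99 and 31.97 TPM in M1, against 3.98, 2.53 and 3.64 TPM in EM3 (log2 fold change 3.43, SE 0.28, adjusted p 0.000148). Its paralogue ZEB2 had 19.2, 18.5 and 13.4 TPM in M1, against 3.25, 4.55 and 3.91 TPM in EM3 (log2 fold change 2.37, SE 0.15, adjusted p 1.77e-05). TWIST2 had 23.6, 21.1 and 16.8 TPM in M1, against 3.41, 3.54 and 2.85 TPM in EM3 (log2 fold change 2.65, SE 0.16, adjusted p 1.65e-05). Every M1 library was above every EM3 library for these 3 genes. The factors named first in many descriptions of the transition were not called in the main test. SNAI2 had 42.8, 49.97 and 39.2 TPM in M1 and 52.4, 47.9 and 93.5 TPM in EM3 (log2 fold change -0.42, SE 0.24, adjusted p 0.208), TWIST1 had 57.5, 17.9 and 15.1 TPM in M1 and 21.4, 28.2 and 19.4 TPM in EM3 (log2 fold change 0.22, SE 0.46, adjusted p 0.747), and SNAI1 had 25.99, 16.9 and 24.1 TPM in M1 and 3.75, 8.6 and 24.9 TPM in EM3 (log2 fold change 1.17, SE 0.50, adjusted p 0.124). None of the 3 was called and their libraries overlapped between the lines, which does not show that their levels were equal. SNAI1 was called higher with the DESeq2 Wald test, on replicates 1 and 2 only, and without replicate 3 of either line. SNAI2 was called lower with no low-count filter.

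Homeobox, forkhead and T-box genes of limb and neural crest mesenchyme were close to absent in EM3 and present in M1. PRRX2 had 5.08, 6.92 and 6.21 TPM in M1, against 0, 0.1 and 0 TPM in EM3 (log2 fold change 7.51, SE 0.72, adjusted p 0.000228). FOXC2 had 8.15, 11.8 and 10.9 TPM in M1, against 0.05, 0.08 and 0.32 TPM in EM3 (log2 fold change 6.26, SE 0.51, adjusted p 0.00018). TBX3, a T-box repressor of mammary and limb development, had 52.9, 78.3 and 59.2 TPM in M1, against 0.15, 0.02 and 0 TPM in EM3 (log2 fold change 11.53, SE 0.57, adjusted p 3.03e-05). These 3 stood clear of EM3 in all M1 libraries. MSX2 and GSC had no count in EM3 and were at least 76.1-fold and 24.5-fold higher in M1, with 0.73, 1.5 and 1.06 TPM and 0.89, 0.42 and 0.59 TPM in its libraries. SOX9, which marks mammary luminal progenitors, was the member that was lower in M1, with 6.98, 4.62 and 6.44 TPM against 23.9, 26.3 and 41.8 TPM in EM3 (log2 fold change -2.32, SE 0.18, adjusted p 5.62e-05).

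Most surface and filament genes of mesenchymal cells were higher in M1, by less than the matrix genes below. Of 21 genes 19 were tested, 16 were higher, none was lower, and the median was 1.32. The count was 10 with limma-trend on TPM and 7 when a fold of at least 1 log2 unit was tested. Vimentin, given above, differed by 1.07 (SE 0.13, adjusted p 0.000511). N-cadherin, encoded by CDH2, had 81.95, 89.5 and 74.4 TPM in M1, against 21.5, 14.4 and 14.9 TPM in EM3 (log2 fold change 2.26, SE 0.30, adjusted p 0.00166). MCAM, an adhesion molecule of endothelial and mesenchymal cells, had 67.4, 63.02 and 87.4 TPM in M1, against 5.02, 6.39 and 6.33 TPM in EM3 (log2 fold change 3.51, SE 0.15, adjusted p 3.35e-06). Neuropilin 1, a coreceptor for VEGF and semaphorins, had 134, 134 and 106 TPM in M1, against 23.5, 29.99 and 36 TPM in EM3 (log2 fold change 2.22, SE 0.18, adjusted p 7.66e-05). The lines did not overlap for any of the 3. S100A4, often used as a mesenchymal marker, was not called (log2 fold change 0.05, SE 0.17, adjusted p 0.837), and ITGA5 was not called either (log2 fold change 1.65, SE 0.60, adjusted p 0.0894). ITGA5 was called higher with the DESeq2 Wald test, on replicates 1 and 2 only, without M1 replicate 2 or 3, and without EM3 replicate 3.

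Most genes for collagens and other matrix proteins were higher in M1. Of 30 genes 27 were tested, 24 were higher, 1 was lower, and the median was 2.64. Their summed level was 8930, 13780 and 13350 TPM in M1, against 2162, 1266 and 2409 TPM in EM3. Type I collagen, the main fibrillar collagen of connective tissue, was unequal in its chains. COL1A1 had 549, 789 and 641 TPM in M1, against 4.4, 3.33 and 8.54 TPM in EM3 (log2 fold change 7.49, SE 0.51, adjusted p 0.000155), and COL1A2 had 2.68, 3.67 and 4.81 TPM in M1, against 0.1, 0.06 and 0.25 TPM in EM3 (log2 fold change 5.50, SE 0.54, adjusted p 0.000299). Both were above EM3 in every M1 library, and within M1 the level of COL1A2 was far below that of COL1A1 on the length-scaled TPM. Fibronectin, which integrins bind, had 3942, 4470 and 4344 TPM in M1, against 538, 599.7 and 652 TPM in EM3 (log2 fold change 2.77, SE 0.16, adjusted p 1.3e-05). Decorin, a collagen-binding proteoglycan, had 1752, 2443 and 1807 TPM in M1, against 143, 88.6 and 156 TPM in EM3 (log2 fold change 4.03, SE 0.27, adjusted p 5.28e-05). COL5A1, which starts collagen fibrils, had 52.7, 86.04 and 37.5 TPM in M1, against 0.25, 0.29 and 0.22 TPM in EM3 (log2 fold change 8.16, SE 0.30, adjusted p 2.62e-06). The lines were separate for all 3, and FN1 was abundant in EM3 too. Tenascin C had 146, 158 and 133 TPM in M1, against 27.8, 22.1 and 19.3 TPM in EM3 (log2 fold change 2.58, SE 0.15, adjusted p 1.5e-05). CTHRC1, a secreted protein of remodelling tissue, went the other way with 0.56, 0.72 and 0.2 TPM in M1 and 6.27, 5.69 and 8.16 TPM in EM3 (log2 fold change -3.86, SE 0.38, adjusted p 0.000157). THBS1 was not called: M1 replicate 1 was low, at 1064, 3411 and 4673 TPM over the M1 libraries, against 1024, 262 and 1178 TPM over the EM3 libraries, where replicate 2 was low.

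Enzymes that crosslink and cut the matrix were higher in M1 in most cases. Of 29 genes 28 were tested, 20 were higher, 4 were lower, and the median was 1.73. MMP13, the collagenase also known as collagenase 3, had 191, 298 and 243 TPM in M1, against 0.03, 0.03 and 0.09 TPM in EM3 (log2 fold change 12.32, SE 0.43, adjusted p 3.87e-06). MMP2, a gelatinase, had 177, 219 and 118 TPM in M1, against 14.5, 17.2 and 13.7 TPM in EM3 (log2 fold change 3.43, SE 0.21, adjusted p 2.01e-05). MMP14, the membrane protease that activates MMP2, had 59.9, 108 and 106 TPM in M1, against 8.46, 9.2 and 12.7 TPM in EM3 (log2 fold change 3.18, SE 0.27, adjusted p 0.000169). The lines did not overlap for these proteases, and MMP13 was next to absent in EM3. Among collagen modifying enzymes, the prolyl hydroxylase subunit P4HA2 (log2 fold change 2.81, SE 0.16, adjusted p 1.26e-05), the lysyl hydroxylases PLOD1 (log2 fold change 1.59, SE 0.16, adjusted p 0.000171) and PLOD2 (log2 fold change 1.85, SE 0.14, adjusted p 4.95e-05) and the crosslinking oxidase LOXL1 (log2 fold change 1.72, SE 0.15, adjusted p 8.6e-05) were higher in M1. The epithelial protease matrilysin, MMP7, had 0.1, 0.08 and 0.05 TPM in M1, against 5.84, 2.04 and 11.9 TPM in EM3 (log2 fold change -6.26, SE 0.68, adjusted p 0.000388), and LOXL4 was also lower (log2 fold change -5.02, SE 0.66, adjusted p 0.000938). Without EM3 replicate 1, without the set term or with limma-trend on TPM, 2 genes of the list were lower. The inhibitor genes split: TIMP2 was higher (log2 fold change 1.35, SE 0.12, adjusted p 9.29e-05), TIMP1 was not called (log2 fold change -0.27, SE 0.22, adjusted p 0.387), and TIMP3 had 4.8, 10.4 and 8.11 TPM in M1 on 4486 counts and 1 count over the EM3 libraries.

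**Figure D2:**
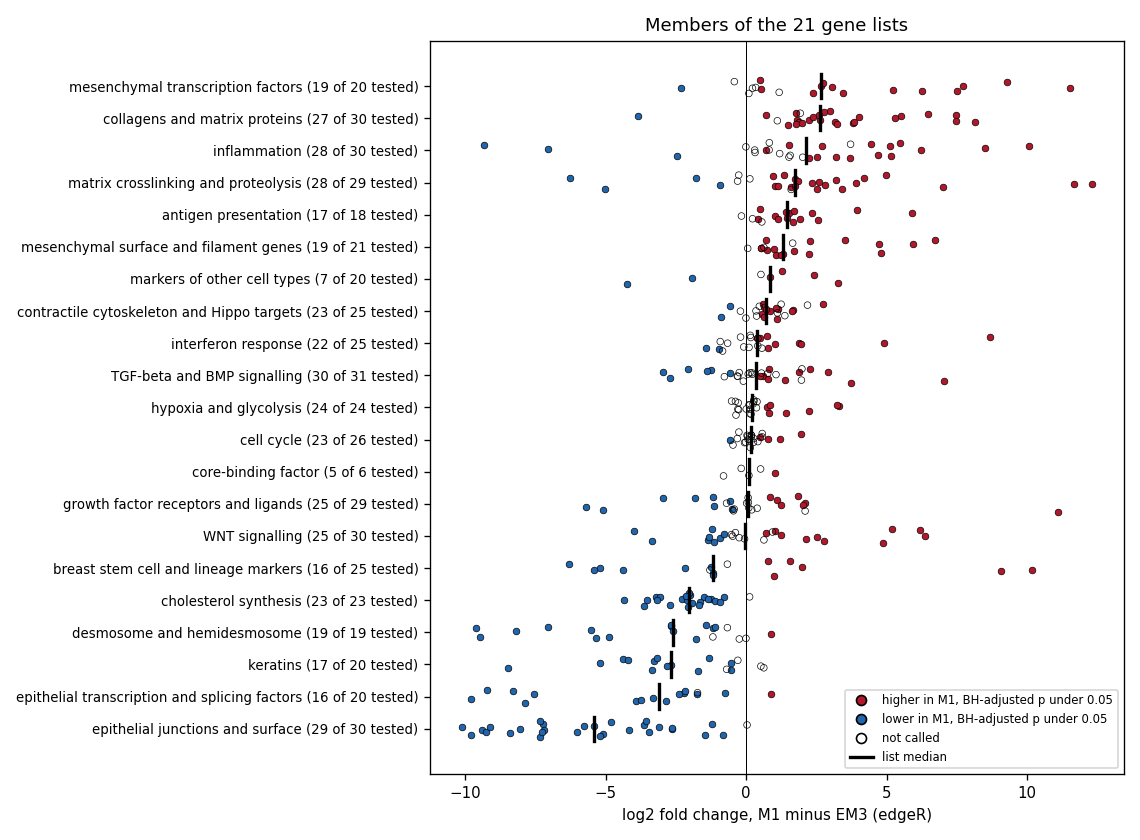
Log2 fold change, M1 minus EM3, of every tested member of the 21 gene lists (points; red, higher and called; blue, lower and called; open, not called), with list medians as black bars and lists sorted by median. The medians run from -5.43 for epithelial junctions and surface to 2.65 for mesenchymal transcription factors.

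Genes of TGF-beta and BMP signalling, pathways that drive the transition and that share SMAD proteins, were mixed. Of 31 genes 30 were tested, 10 were higher, 6 were lower, and the median was 0.36; 4 higher genes were left when a fold of at least 1 log2 unit was tested. LTBP1, which stores latent TGF-beta in the matrix, had 31.6, 43.04 and 49.2 TPM in M1, against 2.18, 4.19 and 3.47 TPM in EM3 (log2 fold change 3.73, SE 0.19, adjusted p 5.94e-06). TGFBI, a matrix protein induced by TGF-beta, had 699, 722 and 239 TPM in M1, against 80.99, 90.4 and 34.9 TPM in EM3 (log2 fold change 2.92, SE 0.15, adjusted p 6.82e-06). INHBB, an activin subunit, had 0.53, 2.17 and 1.67 TPM in M1, against 0.01, 0.01 and 0.01 TPM in EM3 (log2 fold change 7.05, SE 0.79, adjusted p 0.000543). The lines were separate for all 3. On the BMP side, the ligand BMP4 and 3 known BMP target genes were lower in M1. BMP4 had 2.72, 1.82 and 2.17 TPM in M1, against 7.9, 6.82 and 6.13 TPM in EM3 (log2 fold change -2.07, SE 0.29, adjusted p 0.00103). ID2 had 7.8, 4.18 and 1.25 TPM in M1, against 23.3, 24.4 and 31.6 TPM in EM3 (log2 fold change -2.95, SE 0.43, adjusted p 0.00241). The inhibitory SMAD6 had 1.4, 0.67 and 0.42 TPM in M1, against 7.97, 5.66 and 2.41 TPM in EM3 (log2 fold change -2.71, SE 0.31, adjusted p 0.000401). ID3 was lower as well (log2 fold change -1.40, SE 0.16, adjusted p 0.000365), while ID1 was not called (log2 fold change -0.78, SE 0.29, adjusted p 0.0819). The receptor genes BMPR2 and ACVR1 went the other way and kept their higher calls with each library left out. BMPR1B was called lower, a call lost with any 1 library left out, and BMP2, BMPR1A and GREM1 were not called. The signal transducers SMAD2, SMAD3 and SMAD4 were not called, with fold changes of -0.32, 0.54 and -0.25.

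Of the core-binding factor genes, RUNX1, RUNX2 and their partner CBFB were not called. RUNX1 had 8.35, 18.7 and 16.4 TPM in M1 and 44.7, 23.7 and 29.7 TPM in EM3 (log2 fold change -0.81, SE 0.33, adjusted p 0.103), and CBFB had 87.4, 94.5 and 102 TPM in M1 and 102, 102 and 124 TPM in EM3 (log2 fold change 0.10, SE 0.13, adjusted p 0.615). RUNX3 was called, with 74.7, 58.5 and 80.8 TPM in M1 and 17.9, 40.9 and 37.6 TPM in EM3 (log2 fold change 1.04, SE 0.13, adjusted p 0.000464). All M1 libraries were above all EM3 libraries for RUNX3. For RUNX1, all M1 libraries were below all EM3 libraries on TPM. RUNX1 was called lower with no low-count filter, with the DESeq2 Wald test, and without replicate 2 of either line. RUNX2 was called with no low-count filter. Of 6 genes 5 were tested and 1 was higher.

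WNT signalling genes moved in both directions. Of 30 genes 25 were tested, 10 were higher, 8 were lower, and the median was -0.06; at a fold of at least 1 log2 unit the counts were 6 higher and 3 lower. The ligands WNT5A and WNT5B, known for beta-catenin independent signalling, were higher in M1. WNT5A had 474, 515 and 406 TPM in M1, against 17.1, 13.2 and 5.19 TPM in EM3 (log2 fold change 5.19, SE 0.24, adjusted p 5.94e-06). WNT5B had 11.2, 15.3 and 13.02 TPM in M1, against 0.36, 0.3 and 0.1 TPM in EM3 (log2 fold change 6.19, SE 0.38, adjusted p 2.03e-05). WNT10A, a ligand of the beta-catenin branch, had 0.22, 0.33 and 0.3 TPM in M1, against 5.1, 3.09 and 7.68 TPM in EM3 (log2 fold change -3.98, SE 0.37, adjusted p 0.000128). WNT5A and WNT5B stood above EM3 in every M1 library, and WNT10A stood below it. WNT receptors were mixed. The receptor RYK had 22.8, 21.97 and 23.2 TPM in M1 and 53.4, 47.5 and 52.2 TPM in EM3 (log2 fold change -1.16, SE 0.12, adjusted p 0.000197), and ROR2 was not called (log2 fold change -0.53, SE 0.23, adjusted p 0.112). Among the frizzled receptors, FZD1 (log2 fold change 1.04, SE 0.16, adjusted p 0.0014) and FZD7 (log2 fold change 1.23, SE 0.18, adjusted p 0.00116) were higher in M1, while FZD6 (log2 fold change -1.34, SE 0.13, adjusted p 0.000146) and FZD5 (log2 fold change -0.93, SE 0.20, adjusted p 0.007) were lower. The beta-catenin branch genes TCF7, a transcription factor (log2 fold change 2.12, SE 0.40, adjusted p 0.00439), and NKD1, a feedback inhibitor (log2 fold change 2.77, SE 0.52, adjusted p 0.00388), were higher in M1. AXIN2 and LEF1 of the same branch were called higher and ROR1 lower, but none of the 3 kept its call with each library left out. RNF43 and LRP5, which also belong to the beta-catenin branch, were called lower and kept their calls with each library left out. The secreted antagonists differed in direction, and SFRP1 stayed above SFRP2 in every M1 library. SFRP1 had 12.5, 8.93 and 4.94 TPM in M1, against 83.5, 93.3 and 77.4 TPM in EM3 (log2 fold change -3.36, SE 0.22, adjusted p 3.63e-05). SFRP2 had 2.85, 3.11 and 2.26 TPM in M1, against 0.06, 0.03 and 0.01 TPM in EM3 (log2 fold change 6.37, SE 0.42, adjusted p 2.39e-05). DKK3 was higher in M1 (log2 fold change 4.86, SE 0.29, adjusted p 1.57e-05) and DKK1 was not called (log2 fold change -0.39, SE 0.37, adjusted p 0.463).

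Growth factor receptors and their ligands showed no common direction. Of 29 genes 25 were tested, 7 were higher, 8 were lower, and the median was 0.07. The count of higher genes was 4 in a fit of all 21 libraries, and that of lower genes was 4 without M1 replicate 3 or without EM3 replicate 3 and 5 without EM3 replicate 1, without EM3 replicate 2 or without the set term. EGFR, the receptor that SUM149PT is known to depend on, was not called, with 65.3, 67.3 and 43.5 TPM in M1 and 71.4, 79.3 and 63.6 TPM in EM3 (log2 fold change 0.09, SE 0.13, adjusted p 0.642). Its relative ERBB3 had 0.48, 0.16 and 0.44 TPM in M1, against 6.36, 12.02 and 7.43 TPM in EM3 (log2 fold change -5.71, SE 0.67, adjusted p 0.00137). The EGFR ligand epiregulin had 177, 174 and 127 TPM in M1, against 24.8, 34.2 and 67.4 TPM in EM3 (log2 fold change 2.08, SE 0.37, adjusted p 0.00618). M1 was clear of EM3 for ERBB3 and for EREG, the first below and the second above. The FGF receptors differed in direction. FGFR2 had 0.02, 0.14 and 0.08 TPM in M1 and 2.27, 1.67 and 2.56 TPM in EM3 (log2 fold change -5.09, SE 0.51, adjusted p 0.000217). FGFR1 had 22.1, 34.6 and 46.7 TPM in M1 and 29.1, 16.4 and 2.79 TPM in EM3 (log2 fold change 1.86, SE 0.20, adjusted p 0.000249), with overlapping TPM. FGFR1 was above FGFR2 in every library of both lines, and FGFR3 was not called. MST1R, the receptor RON, was lower in M1 (log2 fold change -1.83, SE 0.20, adjusted p 0.00025).

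Many inflammatory cytokines and chemokines were higher in M1. Of 30 genes 28 were tested, 15 were higher, 3 were lower, 10 were not called, and the median was 2.12. CXCL8, the neutrophil chemokine interleukin 8, had 1311, 2436 and 2564 TPM in M1, against 166, 56.8 and 358 TPM in EM3 (log2 fold change 3.69, SE 0.61, adjusted p 0.0072). Interleukin 6 had 85.6, 324 and 465 TPM in M1, against 8.67, 3.34 and 12.7 TPM in EM3 (log2 fold change 5.16, SE 0.74, adjusted p 0.00462). Interleukin 1 beta had 54.2, 267 and 383 TPM in M1, against 1.97, 3.33 and 4.65 TPM in EM3 (log2 fold change 6.23, SE 0.78, adjusted p 0.00277). No EM3 library reached an M1 library for these genes, and M1 replicate 1 was the lowest of its line for all 3. The colony stimulating factors, which act on myeloid cells, were among the clearest. CSF3, which encodes G-CSF, had 50.8, 72.7 and 169 TPM in M1, against 0.2, 0.17 and 0.39 TPM in EM3 (log2 fold change 8.51, SE 0.29, adjusted p 1.11e-06). CSF2, which encodes GM-CSF, had 17.8, 28.9 and 91.2 TPM in M1, against 1.06, 0.83 and 1.56 TPM in EM3 (log2 fold change 5.12, SE 0.39, adjusted p 7.61e-05). CCL2, a monocyte chemokine, had 28.5, 31.3 and 18.6 TPM in M1 and 1 count over the EM3 libraries.

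Interleukin 1 ligands and their antagonist moved apart. IL1A was higher, with 6.65, 19.1 and 16.8 TPM in M1 and 0.62, 0.78 and 0.57 TPM in EM3 (log2 fold change 4.44, SE 0.49, adjusted p 0.000868). IL1RN, the secreted receptor antagonist, had 0.02, 0.04 and 0 TPM in M1 on 2 counts, against 4.04, 7.14 and 11.6 TPM in EM3 on 1628 counts. IL18 had 15.2, 15.1 and 6.84 TPM in M1, against 84.01, 72.3 and 40.7 TPM in EM3 (log2 fold change -2.47, SE 0.14, adjusted p 1.2e-05). M1 libraries were above EM3 for IL1A and below it for the other 2. Lipocalin 2, an iron-carrier binding protein that epithelia secrete, had 2.5, 1.64 and 3.15 TPM in M1, against 192, 325 and 220.4 TPM in EM3 (log2 fold change -7.05, SE 0.43, adjusted p 7.41e-05). IL33, PTGS2, TNFAIP3 and LIF were not called, with fold changes of -0.01, 0.30, 0.82 and 1.19.

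The CXCL1, CXCL2 and CXCL3 chemokines, which share a receptor and lie in 1 cluster on chromosome 4, rose together, and their promoters follow as those of neighbouring genes that moved alike. CXCL1 had 2085, 2384 and 2419 TPM in M1, against 312, 174 and 278 TPM in EM3 (log2 fold change 3.20, SE 0.24, adjusted p 7.12e-05). CXCL2 had 114, 90.5 and 145 TPM in M1, against 19.4, 11.4 and 36.8 TPM in EM3 (log2 fold change 2.51, SE 0.26, adjusted p 0.000346). CXCL3 had 282, 438 and 676 TPM in M1, against 75.5, 19.1 and 118 TPM in EM3 (log2 fold change 2.69, SE 0.50, adjusted p 0.0104). The lines did not overlap for any of them, and EM3 replicate 2 was the lowest library each time. Their coding sequences are similar, so part of the reads may be shared between them. The sequences are RefSeq promoters on GRCh38.p14 in the direction of each gene.
CXCL1, chr4:73869143-73869442, plus strand: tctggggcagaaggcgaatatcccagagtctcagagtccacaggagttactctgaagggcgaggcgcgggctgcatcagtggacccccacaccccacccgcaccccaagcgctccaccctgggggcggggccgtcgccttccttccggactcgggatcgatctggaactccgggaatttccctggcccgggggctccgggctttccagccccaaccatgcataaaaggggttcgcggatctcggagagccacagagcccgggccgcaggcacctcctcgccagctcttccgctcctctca
CXCL2, chr4:74099146-74099445, minus strand: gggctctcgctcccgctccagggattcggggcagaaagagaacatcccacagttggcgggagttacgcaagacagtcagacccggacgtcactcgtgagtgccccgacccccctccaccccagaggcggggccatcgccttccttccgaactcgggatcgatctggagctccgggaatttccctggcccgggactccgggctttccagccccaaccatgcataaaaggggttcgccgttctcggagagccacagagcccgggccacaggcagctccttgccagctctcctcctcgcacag
CXCL3, chr4:74038640-74038939, minus strand: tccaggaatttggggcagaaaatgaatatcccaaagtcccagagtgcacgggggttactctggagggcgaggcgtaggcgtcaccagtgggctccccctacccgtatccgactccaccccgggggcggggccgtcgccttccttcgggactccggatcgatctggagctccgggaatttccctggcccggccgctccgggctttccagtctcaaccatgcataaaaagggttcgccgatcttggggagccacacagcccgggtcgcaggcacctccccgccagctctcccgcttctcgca

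Most antigen presentation genes were higher in M1. Of 18 genes 17 were tested, 14 were higher, none was lower, and the median was 1.46. At a fold of at least 1 log2 unit, 8 were higher. The list is mainly of class I but also holds the class II genes CIITA, CD74 and HLA-DRA. CIITA and HLA-DRA were called higher, HLA-DRA on 82 counts in M1 and 1 in EM3, and CD74 was not tested. The CIITA call was lost without M1 replicate 1 or 3 and without EM3 replicate 2 or 3. HLA-B had 4155, 9695 and 9175 TPM in M1, against 247, 195 and 464 TPM in EM3 (log2 fold change 3.95, SE 0.29, adjusted p 0.000106). B2M, the light chain of class I molecules, had 6851, 6771 and 3684 TPM in M1, against 1823, 2090 and 1455 TPM in EM3 (log2 fold change 1.66, SE 0.14, adjusted p 6.96e-05). NLRC5, the transactivator of class I genes, had 12.02, 9.03 and 10.6 TPM in M1, against 2.76, 5.28 and 2.65 TPM in EM3 (log2 fold change 1.92, SE 0.17, adjusted p 0.000109). Every M1 library was above every EM3 library for each. Levels of the single HLA genes are uncertain, because their sequences are alike and differ between people from the reference. The peptide trimming enzyme ERAP1 (log2 fold change 1.46, SE 0.15, adjusted p 0.000191) and the immunoproteasome subunit PSMB9 (log2 fold change 1.42, SE 0.16, adjusted p 0.000365) were higher as well, while the transporter subunit TAP2 was not called (log2 fold change -0.17, SE 0.14, adjusted p 0.374).

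Interferon response genes did not move as a group. Of 25 genes 22 were tested, 9 were higher, 2 were lower, and the median was 0.40. The count of higher genes was 4 without the set term and 5 without M1 replicate 3, on replicates 1 and 2 only, and with limma-trend on TPM. ISG15, a ubiquitin-like protein, had 18.2, 11.03 and 12.7 TPM in M1, against 5.01, 4.29 and 2.59 TPM in EM3 (log2 fold change 1.88, SE 0.27, adjusted p 0.00105). OAS1, a sensor of double-stranded RNA, had 1.99, 1.55 and 1.56 TPM in M1, against 0.04, 0.11 and 0.06 TPM in EM3 (log2 fold change 4.90, SE 0.41, adjusted p 7.36e-05). Both were separate between the lines. The IFIT genes, among the most inducible of the response, were at a few TPM or less in both lines and not called.

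Cholesterol synthesis was lower in M1 along nearly the whole pathway. All 23 genes were tested, 22 were lower, none was higher, and the median was -2.03. Their summed level was 846, 741 and 1063 TPM in M1, against 2391, 4318 and 4249 TPM in EM3. HMGCS1, which makes HMG-CoA early in the pathway, had 16.4, 16.4 and 16.4 TPM in M1, against 115, 262 and 206 TPM in EM3 (log2 fold change -3.55, SE 0.30, adjusted p 0.000229). Squalene epoxidase, encoded by SQLE, had 15.2, 12.4 and 11.8 TPM in M1, against 92.2, 162 and 98.2 TPM in EM3 (log2 fold change -3.23, SE 0.22, adjusted p 3.55e-05). The lines were separate for both, and EM3 replicate 1 was the lowest of its line each time. A late step of the pathway fell too. DHCR7, which encodes a sterol reductase, had 19.1, 19.4 and 58.5 TPM in M1, against 173, 246 and 378 TPM in EM3 (log2 fold change -3.19, SE 0.22, adjusted p 3.92e-05). M1 replicate 3 was the highest of the M1 libraries and still below EM3. SREBF2, which encodes the SREBP that activates the pathway, had 34.5, 34.2 and 70.6 TPM in M1, against 66.2, 84.4 and 102 TPM in EM3 (log2 fold change -0.93, SE 0.18, adjusted p 0.00496). PMVK was the exception, with 13, 12.4 and 13.3 TPM in M1 and 12.3, 12.1 and 11.2 TPM in EM3 (log2 fold change 0.12, SE 0.17, adjusted p 0.622).

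**Figure D3:**
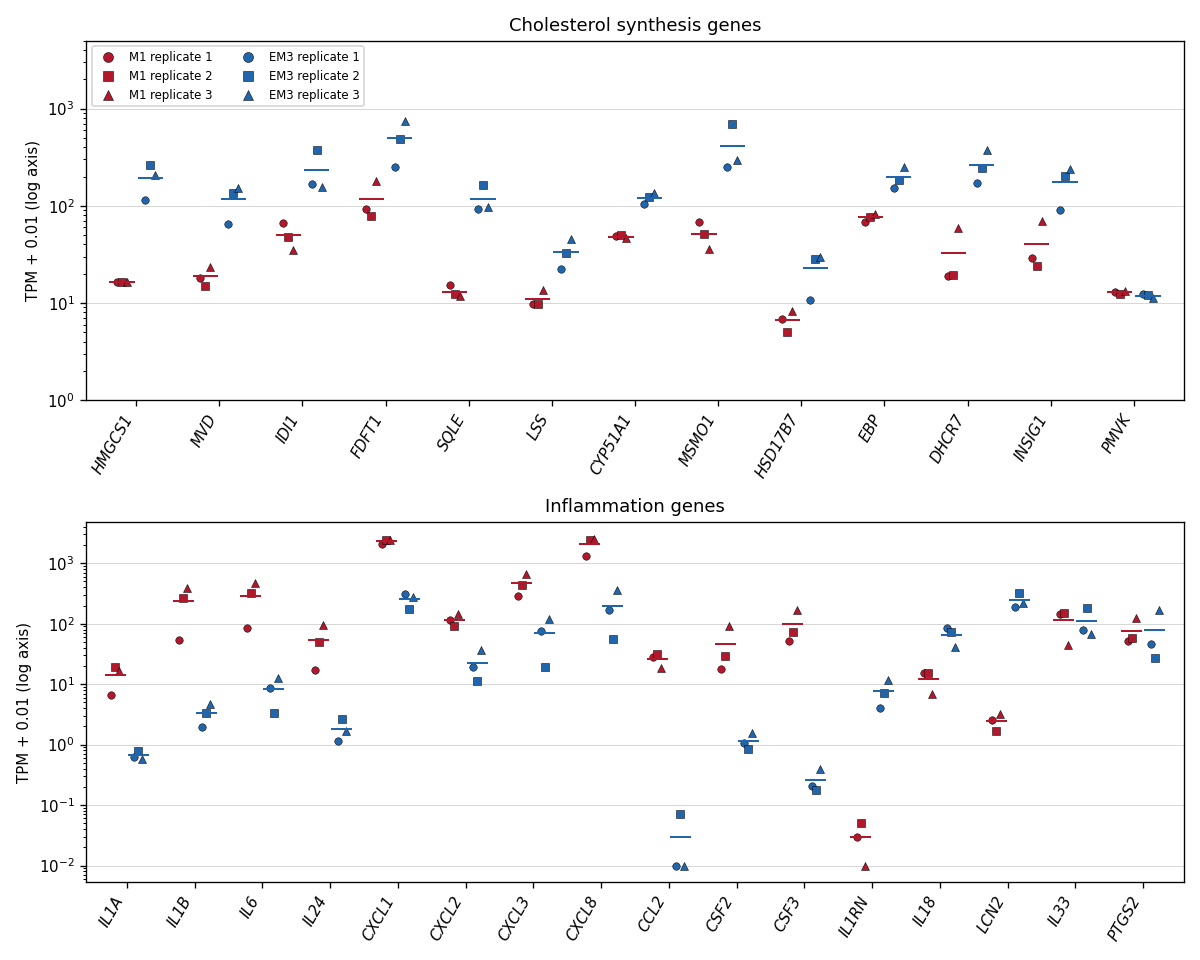
TPM plus 0.01, on log axes, of 13 cholesterol synthesis genes (top) and 16 inflammation genes (bottom) in each M1 library (red, left) and EM3 library (blue, right), with bars at the line means. All plotted cholesterol genes but PMVK lie lower in M1, from 16.4 against 115 TPM or more for HMGCS1, while CXCL1 and CXCL8 lie above 1000 TPM in every M1 library.

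Most proliferation genes were not called. Of 26 cell cycle genes 23 were tested, 4 were higher, 1 was lower, and the median was 0.18; 2 were higher without M1 replicate 3 or without EM3 replicate 3. MKI67 had 78.7, 53.5 and 36.2 TPM in M1 and 57.8, 72.99 and 34.2 TPM in EM3 (log2 fold change -0.06, SE 0.16, adjusted p 0.813), and CDK1 had 288, 155 and 68.5 TPM in M1 and 154, 242 and 82.4 TPM in EM3 (log2 fold change 0.03, SE 0.24, adjusted p 0.939). The libraries of the lines overlapped for both genes, and replicate 3 was the lowest in both lines. PCNA, the sliding clamp of DNA replication, kept its call with each library left out, with 234, 181 and 152 TPM in M1 and 97.3, 103 and 53.5 TPM in EM3 (log2 fold change 1.19, SE 0.15, adjusted p 0.000553). The cell cycle inhibitors CDKN2A and CDKN2B were at or below 0.04 TPM in all 6 libraries.

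Most genes of glycolysis and the hypoxia response were not called, and some were higher in M1. All 24 genes were tested, 7 were higher, none was lower, and the median was 0.21; 4 were higher without the set term. GAPDH (log2 fold change -0.27, SE 0.14, adjusted p 0.177), PGK1 (log2 fold change 0.24, SE 0.11, adjusted p 0.135) and ENO1 (log2 fold change 0.27, SE 0.13, adjusted p 0.152) were not called. The glucose transporter SLC2A3 had 13, 7.57 and 12.8 TPM in M1, against 0.58, 1.36 and 1.44 TPM in EM3 (log2 fold change 3.32, SE 0.30, adjusted p 0.000151). PFKFB4, which makes an activator of phosphofructokinase, had 23.8, 47.7 and 40.2 TPM in M1, against 2.87, 4.38 and 4.66 TPM in EM3 (log2 fold change 3.23, SE 0.34, adjusted p 0.000576). VEGFA, the main angiogenic factor, had 214, 298 and 280.4 TPM in M1, against 36.3, 54.5 and 108 TPM in EM3 (log2 fold change 2.22, SE 0.31, adjusted p 0.00189). M1 was above EM3 in every library for these 3. The carbonic anhydrase CA9, a common hypoxia marker, was not called (log2 fold change 0.0014, SE 0.29, adjusted p 0.998).

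About as many contractile genes and Hippo targets were higher in M1 as were not called or lower, and the count leaned on single libraries and on the set term. Of 25 genes 23 were tested, 12 were higher, 2 were lower, and the median was 0.71. The count of higher genes was 6 without M1 replicate 2, 5 without EM3 replicate 2, 4 without the set term, 6 in a fit of all 21 libraries and 2 at a fold of at least 1 log2 unit. TPM1, a tropomyosin, had 162, 277 and 169.6 TPM in M1, against 29.9, 14.8 and 36.9 TPM in EM3 (log2 fold change 2.75, SE 0.32, adjusted p 0.00101). FHL1, a LIM protein of muscle, had 43.9, 34.7 and 44.3 TPM in M1, against 11.6, 14.1 and 13.6 TPM in EM3 (log2 fold change 1.63, SE 0.14, adjusted p 7.36e-05). Both kept their calls with each library left out and did not overlap. The YAP and TAZ target CCN1 ranged widely, with 77.1, 459 and 794 TPM in M1 and 119, 20.5 and 131 TPM in EM3, and was not called (log2 fold change 2.18, SE 0.94, adjusted p 0.137); YAP1 was not called either (log2 fold change 0.35, SE 0.13, adjusted p 0.0697).

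Markers used for breast stem cells and lineages did not point one way. Of 25 genes 16 were tested, 6 were higher, 8 were lower, and the median was -1.18; 3 were higher without M1 replicate 3 and 2 without EM3 replicate 3. CD24, whose absence beside CD44 defines a stem-like surface profile in breast cancer, had 6.64, 2.38 and 1.12 TPM in M1, against 112, 67.8 and 95.96 TPM in EM3 (log2 fold change -5.20, SE 0.34, adjusted p 6.74e-05). CD44 had 1828, 2626 and 2456 TPM in M1 and 1740, 1360 and 1385 TPM in EM3 (log2 fold change 1.00, SE 0.21, adjusted p 0.00814). Its call was lost without M1 replicate 3 (adjusted p 0.0532) and without EM3 replicate 3 (adjusted p 0.0539). The Notch ligand JAG2 had 0.12, 0.04 and 0.01 TPM in M1, against 3.81, 4.72 and 1.64 TPM in EM3 (log2 fold change -6.31, SE 0.31, adjusted p 5.39e-06). M1 stood below EM3 for CD24 and JAG2 in all libraries. ALDH1A1, another stem cell marker, was lower in M1 (log2 fold change -4.39, SE 0.44, adjusted p 0.000188), and ALDH1A3, the more abundant enzyme here, was not called (log2 fold change -1.29, SE 0.53, adjusted p 0.119).

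The protein-coding genes with the largest fold changes among those whose lines did not overlap were a mixed company. On the side higher in M1 stood MMP13, MEDAG, FPR1, TP53I11, IGFBP7, TIMP3, TBX3, XYLT1, TUSC1, IGF2, C9orf72 and KCNMA1. FPR1, a receptor for bacterial formyl peptides, had 65.4, 99.02 and 146 TPM in M1 and 2 counts over the EM3 libraries. IGFBP7, a secreted binding protein for insulin-like growth factors, had 122, 149.7 and 77.2 TPM in M1 and 3 counts in EM3. KCNMA1, a calcium-activated potassium channel, had 28.96, 16.4 and 16.6 TPM in M1, against 0.04, 0.03 and 0 TPM in EM3 (log2 fold change 10.64, SE 0.39, adjusted p 1.79e-06). All 3 were present in every M1 library and close to absent in EM3. IGF2, whose reads overlap those of a read-through transcript with INS, had no count in EM3 and at least a 259-fold higher level in M1. On the side lower in M1 stood KDF1, MARVELD3, DAP, PRR5-ARHGAP8, FGFBP1, CASP14, ENPP5, CDH1, AC020907.6, GRHL2, LAD1 and DSC2. DAP, which encodes death-associated protein, had 0.11, 0.03 and 0.01 TPM in M1, against 37.99, 38.6 and 38.3 TPM in EM3 (log2 fold change -10.12, SE 0.30, adjusted p 1.03e-06). LAD1, which encodes the anchoring filament protein ladinin, had 0.49, 0.03 and 0.01 TPM in M1, against 74.3, 73.4 and 55.8 TPM in EM3 (log2 fold change -9.71, SE 0.36, adjusted p 2.32e-06). FGFBP1, which releases FGFs from the matrix, had 0.18, 0.13 and 0.06 TPM in M1, against 64.8, 54.02 and 345 TPM in EM3 (log2 fold change -10.09, SE 0.64, adjusted p 0.000124). EM3 was uniform for DAP, and its replicate 3 was the highest for FGFBP1. KDF1, which acts in keratinocyte differentiation, had 1 count in M1 and 1584 in EM3. PRR5-ARHGAP8 is a read-through gene and AC020907.6 overlaps other transcripts, so their levels are uncertain.

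Levels in the other mesenchymal clone, M2, set some of these genes apart without any test. Of the 12 genes higher in M1, MMP13 averaged 0 TPM in M2, MEDAG 0.0033 TPM and FPR1 0.757 TPM, whereas KCNMA1 averaged 62.8 TPM, IGFBP7 36.3 TPM and TBX3 20.3 TPM. Of the 12 lower genes, CDH1 averaged 0.053 TPM in M2, GRHL2 0.077 TPM and LAD1 0.09 TPM. DAP averaged 55.95 TPM in M2, and between 16.1 and 55.95 TPM in the 5 lines other than M1 and EM3. Among all 7 lines, M1 was the one where DAP was below 1 TPM.

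Some genes were listed at 0 in all 3 libraries of 1 line while the other line averaged at least 1 TPM. There were 15 such genes in EM3 and 12 in M1, 27 in all. The genes with the highest M1 levels among the 15 were MEDAG, APOC3, S100A8, TUSC1, CLEC11A and C9orf72. MEDAG, known from fat cell differentiation, had 6.25, 11.9 and 8.43 TPM in M1 and was at least 597-fold higher than in EM3. CLEC11A, a growth factor for blood and bone progenitors, had 2.22, 3.63 and 3.49 TPM in M1 and was at least 139-fold higher. S100A8, a calcium-binding protein of neutrophils and stressed epithelium, had 4.05, 5.69 and 8.85 TPM in M1 and averaged 12.4 TPM in clone E. All libraries of M1 held these genes. The genes with the highest EM3 levels among the 12 were TCN1, SPINK7, MIA, PRR5-ARHGAP8, AC020907.6 and SPINK13. TCN1, which encodes the vitamin B12 carrier haptocorrin, had 6.83, 8.57 and 2.49 TPM in EM3 and was at least 95.3-fold lower in M1. SPINK7 rested on 11 counts in EM3.

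Calls were not spread evenly over the chromosomes. Of 13281 tested protein-coding genes with a chromosome, 19.2% were higher and 21.1% were lower in M1. Chromosome 18 had 9.47% higher and 55.3% lower of 190 genes, with a median fold change of -0.49. On chromosome 8, 44.8% of 462 genes were lower, with a median of -0.41, and on chromosome 9, 38.4% of 537 were lower, with a median of -0.32. Chromosome 22 leaned the other way, with 36.4% higher and 10.1% lower of 308 genes and a median of 0.36. Chromosomes 20 and 14 had 31.1% and 30.1% higher. Copy number was not measured in these data, and its part in the result was not tested.

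**Figure D4:**
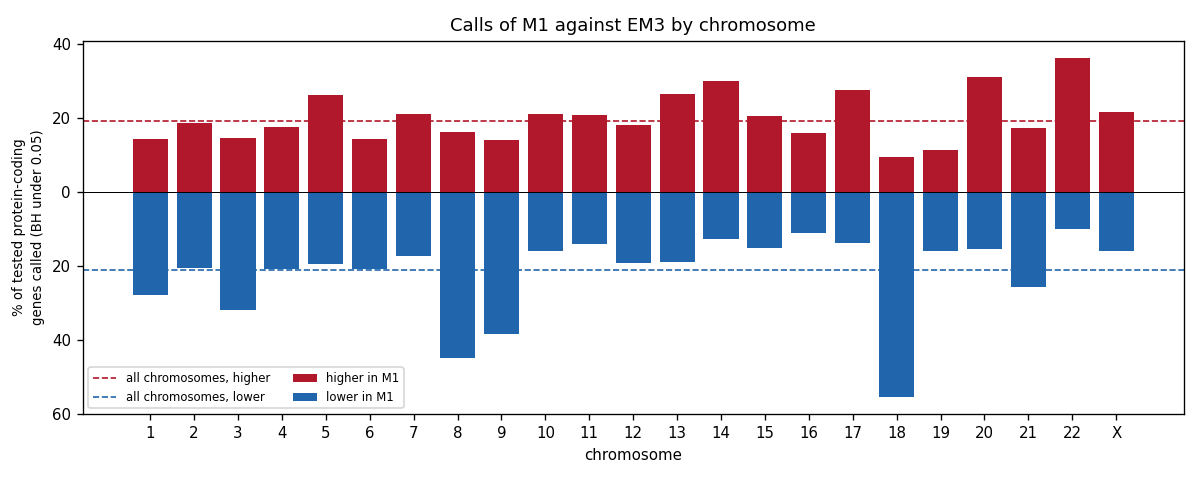
Percent of tested protein-coding genes on each chromosome that were higher (red, upward) or lower (blue, downward) in M1 than in EM3, with dashed lines at the values over all chromosomes. Chromosome 18 has the tallest downward bar, 55.3%, and chromosome 22 the tallest upward bar, 36.4%.

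Runs of at least 5 neighbouring tested genes called in the same direction numbered 91, of which 32 were higher and held 200 genes and 59 were lower and held 414 genes. Many of these runs broke with 1 library left out. The longest unbroken stretch then fell to as few as 1 of 7 genes at chr3:132417526-133825772 and 2 of 11 genes at chr8:109240919-117540262. The longest lower run held 31 genes at chr3:195068279-198043720 (hg38), with a median fold change of -1.96. It broke with each library left out, at AC069257.3, CEP19 or both, and its longest unbroken stretch then held 14 to 23 genes. It includes RPL35A, a ribosomal protein gene with 762, 752 and 839 TPM in M1 and 3131, 3572 and 3462 TPM in EM3 (log2 fold change -2.13, SE 0.12, adjusted p 1.3e-05). It also includes TFRC, the transferrin receptor gene, with 87.3, 93.8 and 64.8 TPM in M1 and 252, 249.9 and 217 TPM in EM3 (log2 fold change -1.58, SE 0.12, adjusted p 3.93e-05), and the polarity gene DLG1 (log2 fold change -1.95, SE 0.13, adjusted p 2.77e-05). The lines were separate for all 3 of them. The longest higher run held 19 genes at chr20:3783851-6040053, with a median of 1.196. Its longest unbroken stretch held 9 to 19 genes with 1 library left out, since SLC23A2 lost its call without replicate 2 or 3 of either line and MAVS without replicate 3 of either line. PCNA lies in it, as does PRNP, the prion protein gene, with 108, 128 and 97.5 TPM in M1 and 40.3, 42.96 and 40.7 TPM in EM3 (log2 fold change 1.45, SE 0.14, adjusted p 0.00013), and the helicase gene MCM8 (log2 fold change 1.57, SE 0.13, adjusted p 6.94e-05). The lower chromosome 18 run of 7 genes at 30990008 to 32073213 begins with the desmosomal cadherin genes DSC3, DSC2, DSG3 and DSG2, and its longest unbroken stretch held 4 to 7 genes with 1 library left out.

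A run of 8 higher genes lay on the short arm of chromosome 9, from 25676389 to 32526324, on a chromosome where most calls were lower. Its first 6 genes, TUSC1, CAAP1, PLAA, IFT74, MOB3B and C9orf72, were at or below 0.10 TPM in every EM3 library. PLAA, a ubiquitin-binding protein, had 21.9, 21.4 and 14.5 TPM in M1, against 0.06, 0.01 and 0 TPM in EM3 (log2 fold change 9.92, SE 0.38, adjusted p 1.79e-06). IFT74, a subunit of the ciliary transport complex, had 12.2, 8.86 and 10.1 TPM in M1, against 0.1, 0.1 and 0 TPM in EM3 (log2 fold change 8.15, SE 0.50, adjusted p 1.95e-05). TUSC1 had 3.39, 3.93 and 3.65 TPM in M1 and no count in EM3, at least 266-fold higher in M1, and C9orf72 had 3.57, 2.38 and 2.34 TPM in M1 and no count in EM3, at least 230-fold higher. The M1 libraries lay close together for these genes. The next genes of the run were expressed in both lines: ACO1, an aconitase that also senses iron, had 46.1, 42.6 and 39.3 TPM in M1 and 13.3, 13.01 and 16.3 TPM in EM3 (log2 fold change 1.59, SE 0.13, adjusted p 7.68e-05), and RIGI, the viral RNA sensor, had 3.77, 2.27 and 1.18 TPM in M1 and 1.94, 1.34 and 0.63 TPM in EM3 (log2 fold change 0.85, SE 0.24, adjusted p 0.0226). The RIGI call was lost without M1 replicate 1, M1 replicate 3, EM3 replicate 2 or EM3 replicate 3, with an adjusted p of up to 0.0923. KLHL9, the tested gene before the run, was not called (log2 fold change 0.13, SE 0.12, adjusted p 0.442). The same 6 genes were at or below 0.10 TPM in every library of E, EM1 and Parental, while PLAA lay between 12.9 and 16.9 TPM in EM2 and between 27.2 and 44.4 TPM in M2.

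**Figure D5:**
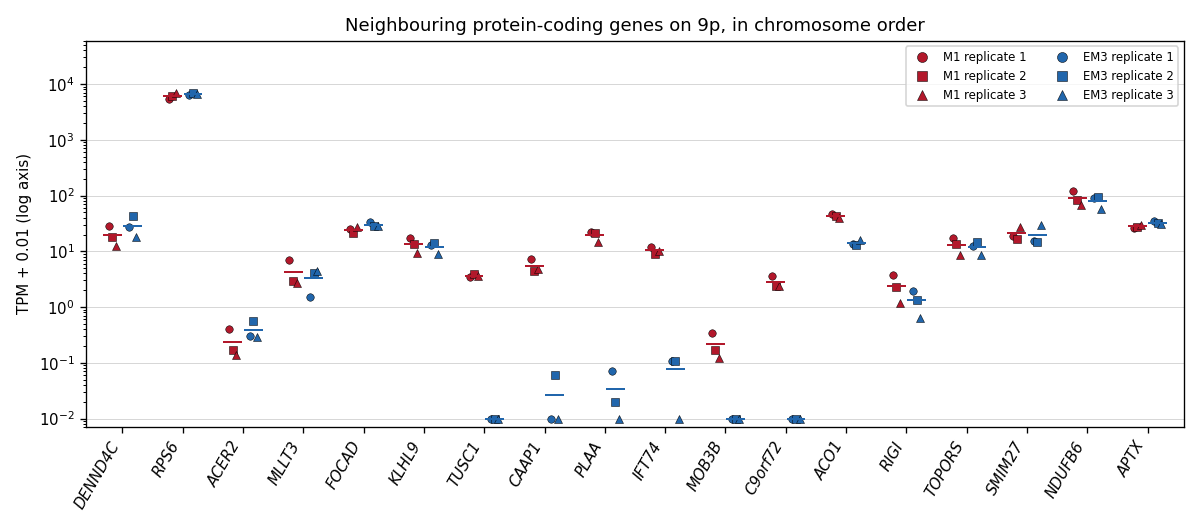
TPM plus 0.01, on a log axis, of 18 neighbouring tested protein-coding genes on chromosome 9 in chromosome order, in each M1 library (red, left) and EM3 library (blue, right), with bars at the line means. From TUSC1 to C9orf72 all EM3 points lie at or below 0.10 TPM, while PLAA lies at or above 14.5 TPM in M1, and of the 12 other genes plotted only ACO1 and RIGI were called.

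Most markers of other cell types were at or near 0 in both lines, with CD68, CD14, HBA1 and MBP among the exceptions. Of 20 such genes 7 could be tested, 4 were higher and 2 were lower. The summed level was 162 to 232 TPM in M1 and 121 to 137 TPM in EM3, most of it CD68. PTPRC, the pan-leukocyte marker, was at or below 0.15 TPM in all 6 libraries, and HBB, ADIPOQ and CHGA were at 0 in all of them. CD68, a lysosomal protein that tumour cells also make, had 154, 198 and 226 TPM in M1 and 105, 104 and 116 TPM in EM3 (log2 fold change 0.86, SE 0.13, adjusted p 0.00145). MBP, a myelin gene with other forms outside the nervous system, had 1.44, 1.03 and 0.44 TPM in M1 and 11.4, 14 and 12.7 TPM in EM3 (log2 fold change -4.24, SE 0.23, adjusted p 9.5e-06). The lines were separate for both. CSF1R, the macrophage growth factor receptor, had 1, 1.4 and 1.03 TPM in M1 and 0.18, 0.11 and 0.33 TPM in EM3 (log2 fold change 2.396, SE 0.49, adjusted p 0.00579). PECAM1, an endothelial adhesion molecule, had 0.8, 0.83 and 0.76 TPM in M1 and 0.09, 0.11 and 0.21 TPM in EM3 (log2 fold change 3.28, SE 0.53, adjusted p 0.00252). SYP, a synaptic vesicle protein, was called higher (log2 fold change 1.26, SE 0.33, adjusted p 0.0181), a call lost without replicate 2 or 3 of either line. The part of other cell types in the results was not tested. HBA1, a haemoglobin gene with a near-identical copy, was lower in M1 (log2 fold change -1.92, SE 0.35, adjusted p 0.00334), so its level is uncertain.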

How the data were processed

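Poly(A) RNA of SUM149PT lines was sequenced from one end in 21 libraries, of which the 3 of clone M1 and the 3 of clone EM3 are compared here. Per the submitters' processing notes, the authors used bcl2fastq 2.20.0.422, cutadapt 2.4, STAR 2.7.2b, RSEM 1.3.2 and the build hg38; the annotation release and the strand setting are not given in the sources used here. Antisense and overlapping genes can therefore not be told apart, and RSEM may split reads between near-identical genes. Per the file headers, each table gives an expected count, TPM and an effective length, in bases, for 60617 genes. The expected counts the authors deposited are estimated reads per gene, of which 7.61 to 8.46% of values in the 6 libraries were not whole. Deposited TPM values are the authors' length-scaled levels per library, so a ratio of TPM can differ from the tested fold.

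The main test, on expected counts rounded to whole numbers, was edgeR 4.0.16 under R 4.3.3 (robust quasi-likelihood F-test, TMM scaling, filterByExpr by line with a minimum count of 10), with replicate 3 against replicates 1 and 2 as an additive term. Normalization factors ran from 0.934 to 1.06, and 3 residual degrees of freedom were left, with a biological coefficient of variation of 0.209. A gene was called at a Benjamini-Hochberg adjusted p under 0.05. Symbols came from HGNC, else from GENCODE 29, which also gave positions and gene types on hg38 for 58542 genes. All 493 genes of the 21 lists had a row in the tables. The text names list members and the 12 largest changes in each direction. These changes were taken among called protein-coding genes with a mean CPM of at least 1 and no overlap between the lines. Also named are some or all genes of selected runs, and for each line up to 6 genes at 0 in it, picked by TPM. The comparison, the lists and these rules were chosen with earlier results of these data known. Which list members are described was partly chosen after their values were seen, with preference for calls that held in other settings.

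A fold against a line with no count is a lower bound, with a floor of 3 counts over its 3 libraries; bounds cover counting error only, and reads without molecular identifiers are not independent molecules. For genes with 1 to 3 counts in a line no fold is given. Promoter sequences are those of RefSeq on GRCh38.p14, and motifs are not reported. CRB3 and AP1M2 were picked from the epithelial lists for their number of matches in an earlier motif search, and the CXCL genes after one as well. Alternatives were no low-count filter, the DESeq2 Wald test (DESeq2 1.42.0), its size factors within edgeR, only genes averaging 1 CPM or more, limma-trend on log2(TPM + 1), limma-voom (limma 3.58.1), a fold of at least 1 log2 unit, no set term, a replicate block, all 21 libraries in 1 fit, replicates 1 and 2 only, and each of the 6 libraries left out in turn.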

Additional observations from a re-analysis of the deposited data

How the results depend on the processing

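The count of 6080 called genes fell to 3951 with limma-trend on TPM, to 1902 when a fold of at least 1 log2 unit was tested and to 3482 without the set term. The corresponding counts of genes higher in M1 were 1810, 862 and 1603, and for genes lower in M1 they were 1040 with the fold threshold and 1879 without the set term. Between 4549 and 5374 genes were called with 1 library left out, the lowest without M1 replicate 3, and 45.3 to 49.8% of the calls were higher in M1 in all 17 other settings. Over the 21 lists, 306 genes were called and 201 passed the test of at least 1 log2 unit. The 27 genes at 0 in 1 line became 5 with a mean of at least 5 TPM in the other line and 75 with a mean count under 1 in place of 0, and the 91 runs became 172 with at least 4 neighbouring genes. Of 322 called list and named genes, 208 stayed called in every one of the 17 other settings in which they were tested. Some of the 208 were too low to be tested with limma-trend on TPM, and the 1 CPM minimum also left some genes untested. Some list genes not called in the main test were called in other settings, among them SNAI1, EHF, ITGA5, ITGB4, SMAD3 and RUNX1. Direction was reversed with a call for 2 genes not called otherwise, both without M1 replicate 2: HBEGF at -1.38 (adjusted p 0.0430, edgeR) against 0.20, and IGF1R at -0.51 (adjusted p 0.0328, edgeR) against 0.01; with 1 library left out they ranged from -1.38 to 1.27 and from -0.51 to 0.36, and the cause was not tested. The replicate numbers were not taken as pairs, since the deviations of same-numbered libraries correlated at 0.231, -0.0809 and 0.632 for replicates 1, 2 and 3. With the replicate number as a block, 5034 genes were called, of which 2356 were higher and 2678 lower. With 3 residual degrees of freedom, genes of small change or few counts can fail the test without being equal.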

Other observations

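4 receptor genes of the interleukin 1 family that are neighbours among the tested genes of chromosome 2 were higher in M1. They lie in a run of 6 called genes from 101397361 to 102398775 (hg38), and genes that were not tested may lie between them. IL1R1, the signalling receptor for interleukin 1, had 95.5, 75.8 and 52.1 TPM in M1, against 7.78, 8.47 and 8.28 TPM in EM3 (log2 fold change 3.25, SE 0.19, adjusted p 1.63e-05). IL1R2, the decoy receptor, had 2.75, 4.54 and 9.62 TPM in M1, against 0.55, 0.41 and 0.19 TPM in EM3 (log2 fold change 4.41, SE 0.66, adjusted p 0.0022). IL1RL1, the receptor for interleukin 33, had 23.02, 40.7 and 75.9 TPM in M1, against 0.62, 0.53 and 2.58 TPM in EM3 (log2 fold change 5.55, SE 0.47, adjusted p 0.000318). The lines did not overlap for any of the 3, and all kept their calls with each library left out. IL18R1, the interleukin 18 receptor, was higher as well (log2 fold change 4.81, SE 0.36, adjusted p 7.68e-05), while the ligand IL18 was lower in M1. IL1RAP, the coreceptor of IL1R1 and IL1RL1, lies on chromosome 3 and was lower, with 11.01, 11.2 and 15.9 TPM in M1, against 48.8, 40.8 and 116 TPM in EM3 (log2 fold change -1.95, SE 0.28, adjusted p 0.00216). Reads in the overlap of IL1RL1 and IL18R1 cannot be told apart here.

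A run of 5 higher genes lay on chromosome 19, from 51571298 to 51804110, and 3 of them were close to absent in EM3. Its other members, ZNF175 and SPACA6, were expressed in both lines, and ZNF175 lost its call without replicate 3 of either line. The 3 are the formyl peptide receptors FPR1, given above, and FPR2, with 1.21, 0.57 and 0.97 TPM in M1 and none in EM3, and the hyaluronan synthase HAS1, with 0.44, 0.99 and 1.81 TPM in M1 and no count in EM3, at least 85.6-fold higher in M1. FPR1 and FPR2 overlap in the annotation, so their reads may be shared. On chromosome 22, LGALS1, which encodes the sugar-binding protein galectin 1, had 1493, 1439 and 1833 TPM in M1, against 477, 708 and 587 TPM in EM3 (log2 fold change 1.41, SE 0.17, adjusted p 0.000465). It lies in a run of 8 higher genes, and every M1 library was above every EM3 library.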
